A study of Homo sapiens with 6 samples.

Results

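The genes described here encode the switch that lets a cell enter S phase: 5 E2F transcription factors (E2F1, E2F2, E2F3, E2F7 and E2F8), the E2F partner TFDP1, the pocket proteins RB1, RBL1 and RBL2, and the MYB family member MYBL2. They were chosen by symbol, with earlier results of these data known. All 10 had a row in the deposited tables among 62703 gene IDs, and all 10 passed the filter on low counts that left 16082 genes. RNA came from H929, an established multiple myeloma line labelled wild type, and was read as paired ends. Of the 6 libraries, 3 came from cells given 1 µM Mi-2, an inhibitor of the protease MALT1, and 3 from cells given its solvent DMSO, each for 24 h.

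E2F1, E2F2 and E2F3 bind DNA as dimers with a DP protein such as TFDP1 and turn on genes for DNA synthesis. Pocket proteins hold E2Fs in check until cyclin-dependent kinases phosphorylate them in late G1. E2F7 and E2F8 are atypical members that bind DNA without a DP partner or a pocket protein, and they repress E2F target genes later in the cycle. RBL2 (p130) is the pocket protein typical of resting cells, where it joins E2F4 and the MuvB core in the DREAM complex. In cycling cells MYBL2 (B-MYB) and later FOXM1 join the same MuvB core and activate genes of mitosis.

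Total estimated counts ran from 19980700 to 23756700 per library. No library was a copy of another (chi-square of 15 to 21.1 per degree of freedom within groups). The title of every library carries the same biological replicate number, and separate cultures are not named in the labels. The p-values here therefore measure sample-to-sample spread alone, which may be technical. Plasma cell markers were high in every library (summed TPM of 10288 to 14518 over 13 genes, mostly JCHAIN and XBP1), and 4 of 6 B cell markers stayed under 10 counts in every library, with CD22 at 0. Of the 13 plasma cell markers 5 were called (edgeR adjusted p under 0.05), beside 11.0% of all genes tested. SDC1 (-0.69 ± 0.15), CD38 (-0.86 ± 0.21) and FGFR3 (-0.72 ± 0.08) fell, and IRF4 (0.35 ± 0.09) and MZB1 (0.70 ± 0.11) rose on the log2 scale. The part of these marker shifts in the results that follow was not tested. Summed TPM of the 11 T and NK cell markers was 30.04 to 34.9 with DMSO and 42.0 to 47.9 with Mi-2, nearly all of it from CD3E, while CD3D, CD8A, CD8B and NCR1 were at 0 throughout. Fibroblast, endothelial and epithelial markers summed to 69.7 to 88.3 TPM with DMSO and 88.2 to 125 TPM with Mi-2, mostly from PECAM1, with COL1A2, COL3A1 and CDH5 at 0. Among these and the T and NK cell markers, CD3E (0.50 ± 0.11), PECAM1 (0.35 ± 0.10) and KRT18 (1.065 ± 0.181) were called higher. Their part in the results that follow was not tested either. Myeloid markers summed to 0.83 to 1.17 TPM with DMSO and 1.07 to 2.86 TPM with Mi-2.

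Bases just upstream of the start site are shown for the members whose promoters hold letters of an E2F site close to the start, because E2F proteins are known to control several of their own genes. They are from RefSeq on GRCh38.p14, written 5′ to 3′ on the strand of the gene, and end at the base before the annotated RefSeq start. The last 19 bases of the E2F1 window and all the bases shown for MYBL2 lie within the GENCODE 29 gene, which begins upstream of the RefSeq start. Capitals mark E2F letters (TTCCCGC or TTGGCGC on either strand, and TTTCGCG or TTGGCGG on either strand, the latter pair added after the windows had been read). The E2F1 window is chr20:33686386-33686485 on the minus strand, E2F2 is chr1:23531234-23531333 on the minus strand, E2F3 is chr6:20401779-20401878 on the plus strand and RBL1 is chr20:37095998-37096097 on the minus strand. For MYBL2 only 30 bases around the match are given, chr20:43667061-43667090 on the plus strand.
E2F1: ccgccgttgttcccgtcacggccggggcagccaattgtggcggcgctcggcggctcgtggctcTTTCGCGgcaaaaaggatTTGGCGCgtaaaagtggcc
E2F2: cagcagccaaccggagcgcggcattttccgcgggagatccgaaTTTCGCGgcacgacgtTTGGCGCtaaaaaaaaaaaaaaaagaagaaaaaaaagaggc
E2F3: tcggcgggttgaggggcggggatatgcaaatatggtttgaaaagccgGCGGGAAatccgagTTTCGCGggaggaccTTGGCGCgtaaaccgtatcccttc
RBL1: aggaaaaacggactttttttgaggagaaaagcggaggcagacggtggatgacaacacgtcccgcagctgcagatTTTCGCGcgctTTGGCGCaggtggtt
MYBL2: gcgccgacgcgcTTGGCGGgagatagaaaa

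The letters TTGGCGC began 19 bases before the start in E2F1, 41 in E2F2, 24 in E2F3 and 15 in RBL1, and in each of these 4 genes TTTCGCG lay just upstream of it, beginning 37, 57, 39 and 26 bases before the start. Within 250 bases before a start, TTCCCGC or TTGGCGC on either strand occurred in 5 of the 9 members with a window (E2F1, E2F2, E2F3, E2F7 and RBL1), and in 7.81% of all 35116 RefSeq windows of that length. The added letters TTTCGCG or TTGGCGG occurred in 6 of the 9 (E2F1, E2F2, E2F3, RBL1, MYBL2 and TFDP1). Since they were chosen on these windows, that count is a description and no comparison; 3.91% of all windows hold them. The windows of RBL2 and RB1 held neither, and E2F8 had no window. The only RB1 window, chr13:48476200-48476449, lies far inside the gene, which begins at 48303726 in GENCODE 29. The bases before that beginning were not searched. The RefSeq starts of E2F1, E2F7, MYBL2, TFDP1, RB1 and RBL2 (both of its starts) lie inside the GENCODE 29 gene. So does the other start of E2F3, at chr6:20403614, whose bases are not shown. Letters of the CHR element (TTTGAA or TTCGAA on either strand) were found for 1 member, E2F3, and in 14.34% of all windows. The CCAAT box (CCAAT on either strand) was found in E2F1, E2F3, E2F7 and RBL2, against 32.01% of all windows. A match is a run of letters and not a measured binding site.

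With Mi-2, 7 of the 10 members fell, 1 rose and 2 were not called. E2F1, E2F2, E2F7, E2F8, TFDP1, RBL1 and MYBL2 fell, by 0.62 to 1.09 on the log2 scale, while RBL2 rose by 0.35 and neither E2F3 nor RB1 passed the threshold (edgeR quasi-likelihood test, Benjamini-Hochberg adjusted p under 0.05 over all 16082 genes). Over all genes tested 11.0% were called, 6.03% lower and 5.02% higher. With upper-quartile scaling the higher calls were the more numerous (849 lower, 923 higher). The median log2 fold change was -0.66 over the members and 0.005 over all genes. Since the members were chosen with earlier results of these data known, these contrasts with all genes are a description. In bulk RNA, fewer cells in a given phase of the cycle cannot be told apart from less of these mRNAs per cell.

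**Figure D1:**
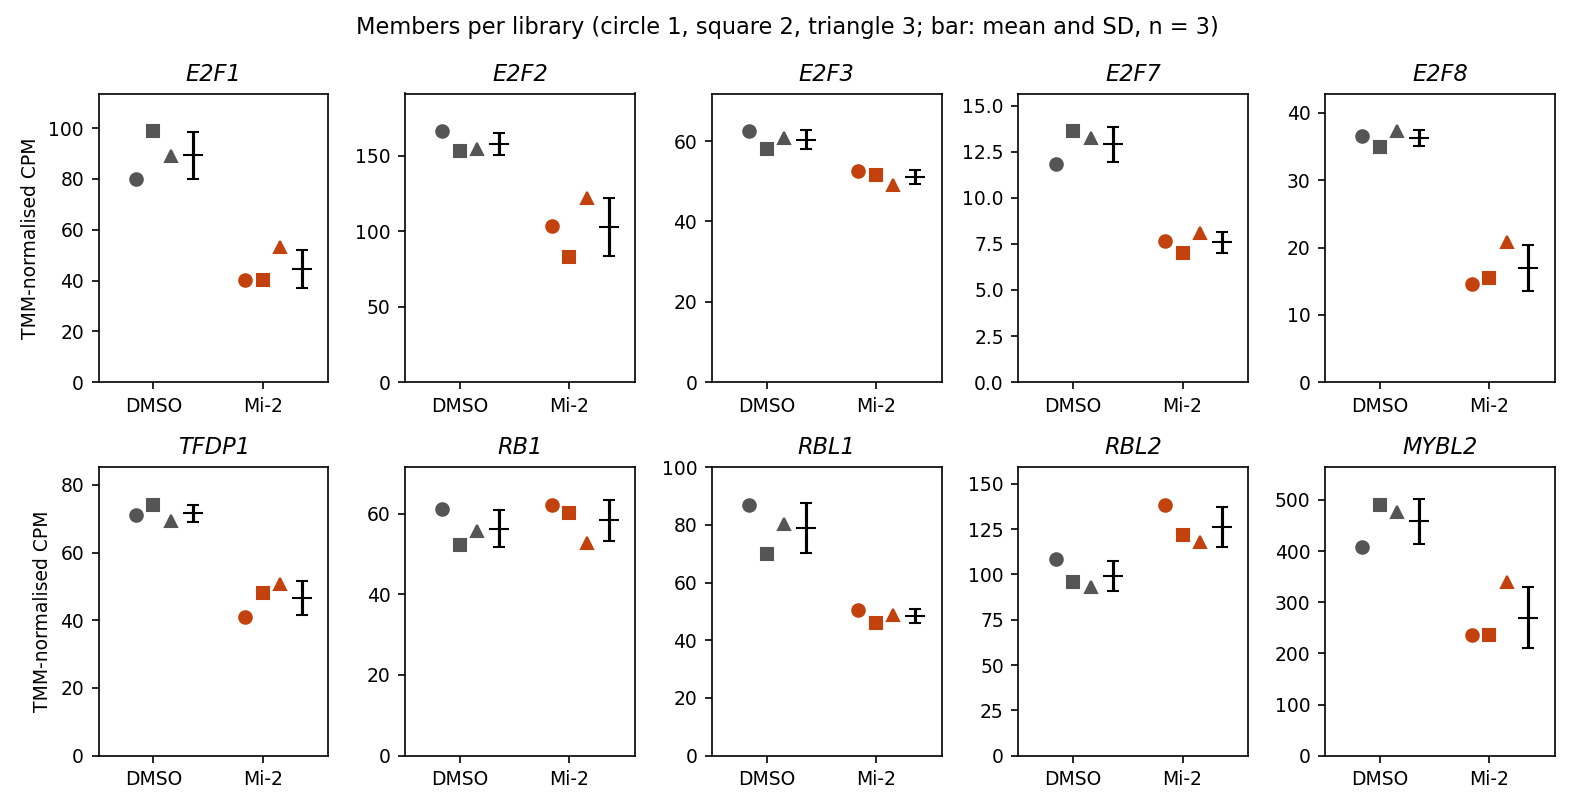
TMM-normalised CPM (y axis, from 0) of each member in the 3 DMSO and 3 Mi-2 libraries (circle, square and triangle for libraries 1, 2 and 3), with the mean and SD (n = 3) beside them. All points of E2F1, E2F2, E2F3, E2F7, E2F8, TFDP1, RBL1 and MYBL2 are lower with Mi-2, those of RBL2 are higher and those of RB1 overlap.

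E2F1, an activator whose product drives entry into S phase, is annotated at chr20:33675683-33686404 (minus strand, GENCODE 29 on GRCh38). Libraries 1, 2 and 3 of the DMSO group had 80.0, 98.8 and 89.0 CPM, and those of the Mi-2 group had 40.2, 40.1 and 53.0 CPM (the order used for each gene that follows). All Mi-2 values lay below all DMSO values, with Mi-2 library 3 the closest. The log2 fold change was -1.005 ± 0.13 (SE), or 2.01-fold lower, with an edgeR adjusted p of 0.00314. It was called with any 1 library left out, where values ran from -1.15 to -0.93.

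E2F2 (chr1:23506430-23531220, minus strand), a second activator, had 166, 153 and 154 CPM with DMSO and 103, 83.3 and 122 CPM with Mi-2. The groups did not overlap, and the Mi-2 libraries were spread more widely (103 ± 19.2 CPM, mean ± SD, n = 3) than the DMSO libraries (158 ± 7.3 CPM). Its fall of 0.62 ± 0.13 on the log2 scale (edgeR adjusted p = 0.0162) kept its size but not its call when DMSO library 2 or 3, or Mi-2 library 1, was left out (-0.64, -0.64 and -0.62, adjusted p of 0.0522, 0.0503 and 0.0619). Limma on log2(TPM + 1) did not call it (adjusted p = 0.0624).

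E2F3 (chr6:20401906-20493715, plus strand), the third activator, had 62.5, 58.0 and 60.7 CPM with DMSO and 52.6, 51.6 and 49.2 CPM with Mi-2. Although the groups did not overlap, which held for 9 of the 10 members and for 32.3% of all genes tested, the log2 value of -0.24 ± 0.08 did not pass (95% interval -0.41 to -0.07, edgeR adjusted p = 0.0792). Its interval and that of E2F1 (-1.29 to -0.72) did not overlap, though the difference between the genes was not tested. The E2F3 window shown held 2 matches of the first kind of E2F letters, and the window at its other start held none.

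Atypical E2Fs stood at lower levels and fell. E2F8 (chr11:19224063-19241620, minus strand) had 36.5, 35.0 and 37.3 CPM with DMSO and 14.6, 15.5 and 20.8 CPM with Mi-2. The DMSO libraries lay close together (36.3 ± 1.19 CPM, mean ± SD, n = 3) and no Mi-2 library came near them. Its log2 fold change of -1.09 ± 0.14 was the largest fall among the members (edgeR adjusted p = 0.00314). E2F7 (chr12:77021247-77065580, minus strand), a paralogue with which E2F8 can pair, went from 11.8, 13.6 and 13.2 CPM with DMSO to 7.67, 6.98 and 8.09 CPM with Mi-2. Again the groups were separate, with a log2 fold change of -0.77 ± 0.13 (edgeR adjusted p = 0.00910). Both were called with any library left out. E2F7, at 1.45 to 4.11 TPM, was not called by limma on log2(TPM + 1) (-0.67, adjusted p = 0.0882) or log2(TPM + 0.1) (-0.92, adjusted p = 0.0782).

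TFDP1 (chr13:113584721-113641470, plus strand) encodes DP1, the dimer partner of the E2Fs other than E2F7 and E2F8. It had 71.0, 74.1 and 69.4 CPM with DMSO and 41.0, 48.1 and 50.7 CPM with Mi-2, again with no overlap. The fall of 0.62 ± 0.09 on the log2 scale (edgeR adjusted p = 0.00589) was called with any library left out. TFDP2, the other DP gene tested, had 22.4 to 27.3 CPM with DMSO and 25.2 to 29.8 CPM with Mi-2, and its value of 0.18 ± 0.11 did not pass (95% interval -0.08 to 0.44). TFDP3 had 1 count in 1 library and was not tested.

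The E2Fs outside the set showed no call. E2F4, which works mainly with RBL1 and RBL2, ranged from 85.1 to 105 CPM in the control group and from 76.8 to 90.8 CPM in the treated group, a log2 fold change of -0.13 ± 0.11 (95% interval -0.36 to 0.11). E2F5, the other such E2F, averaged 9.27 CPM in the control group and 9.38 CPM in the treated group (0.02 ± 0.14, 95% interval -0.31 to 0.34). E2F6, a repressor that works without pocket proteins, was at -0.17 ± 0.12 (95% interval -0.45 to 0.11). In each of these 3 genes the groups overlapped.

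The 3 pocket protein genes gave 3 different values. RBL1 (p107, chr20:36996349-37095995, minus strand) had 87.1, 69.8 and 80.2 CPM with DMSO and 50.6, 46.0 and 48.6 CPM with Mi-2. All Mi-2 libraries were lower, and the log2 fold change was -0.71 ± 0.10 (edgeR adjusted p = 0.00438), called with any library left out. RBL2 (p130, chr16:53433977-53491649, plus strand) went the other way, from 108, 96.1 and 93.0 CPM with DMSO to 139, 122 and 118 CPM with Mi-2. Its groups did not overlap, but the rise of 0.35 ± 0.10 (edgeR adjusted p = 0.0478) lay just inside the threshold. It was called without DMSO library 1 or Mi-2 library 3 and not without any of the other 4 (adjusted p up to 0.180), nor by limma on log2(TPM + 1) (0.205). RB1 (chr13:48303726-48599436, plus strand), the retinoblastoma gene itself, had 61.1, 52.1 and 55.6 CPM with DMSO and 62.2, 60.1 and 52.7 CPM with Mi-2. These values overlapped, and its 95% interval on the log2 scale ran from -0.16 to 0.27 around 0.05 (edgeR adjusted p = 0.779).

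Some reads of the pocket genes may belong elsewhere. Estimated counts were fractional in 6 libraries for RBL2, in 5 for RBL1 and in 1 for E2F3, as happens where reads are divided among genes, and were whole throughout for the other 7 members. RBL2 overlaps AKTIP and the unnamed gene ENSG00000279722, and RB1 overlaps RCBTB2 and LINC00462, all on the opposite strand in GENCODE 29. Overlapping genes with few counts are not named. Summed over the 6 libraries, RB1 had 7633 counts and the gene with the most counts among those overlapping it had 6927. For RBL2 these sums were 15062 and 1854. Whether counting used strand is not given in the sources used here, so reads in the overlaps cannot be told apart.

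**Figure D2:**
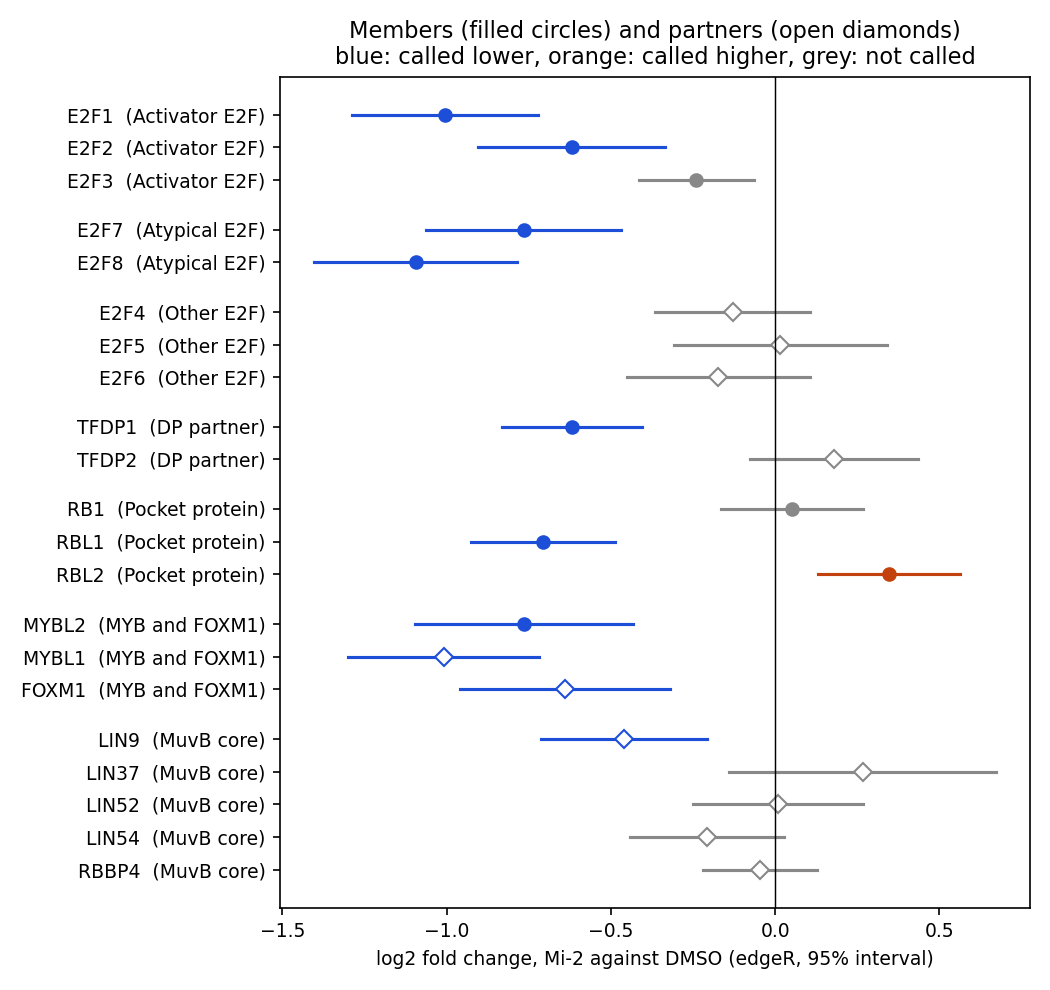
Log2 fold change of Mi-2 against DMSO with its 95% interval (x axis) for the 10 members (filled circles) and for E2F, DP, MYB and MuvB partners (open diamonds), grouped by role. Intervals of the 7 falling members lie wholly below 0, RBL2 lies above 0 and RB1, E2F4, E2F5, E2F6 and TFDP2 span 0.

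Levels corrected for gene length (deposited TPM) show how the balance of the pocket family moved. Summed over RB1, RBL1 and RBL2, the TPM was 62.9, 57.2 and 53.1 with DMSO and 65.5, 57.8 and 53.6 with Mi-2, which overlap. Within that sum RBL1 made up 27.1% to 31.1% with DMSO and 16.7% to 19.7% with Mi-2, and RBL2 43.9% to 47.7% with DMSO and 54.5% to 56.5% with Mi-2. The ratio of RBL2 to RBL1 was 1.53, 1.76 and 1.42 with DMSO and 3.10, 3.31 and 2.77 with Mi-2. The 2 groups were well apart on this ratio, so the makeup of the family differed while its total level did not separate the groups. These ratios describe mRNA and were given no test, since they join values already reported.

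**Figure D3:**
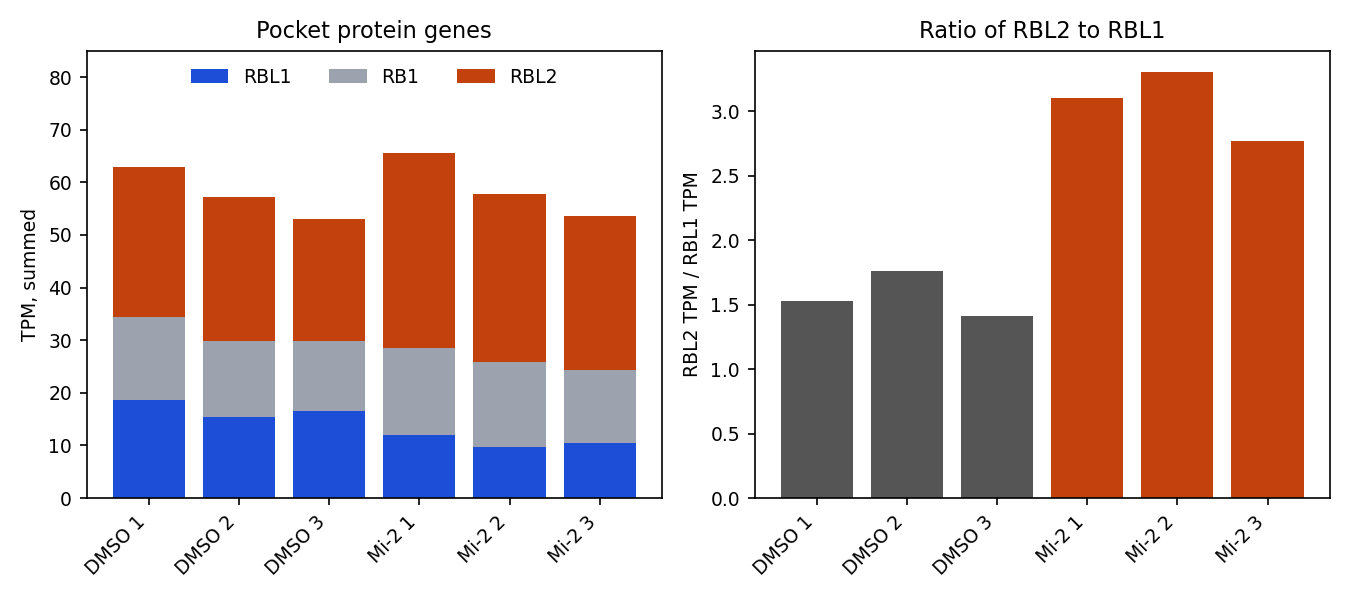
Left, deposited TPM of RBL1, RB1 and RBL2 stacked for each library. Right, RBL2 TPM divided by RBL1 TPM in each library, which is 1.42 to 1.76 with DMSO and 2.77 to 3.31 with Mi-2, while the stacked totals overlap (53.1 to 62.9 against 53.6 to 65.5 TPM).

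Among the E2Fs the same scale gives a summed level of the 3 activators of 94.9, 103 and 88.5 TPM with DMSO and 59.7, 52.9 and 65.4 TPM with Mi-2. E2F3 supplied 16.4% ± 1.04 of that sum with DMSO and 22.9% ± 3.37 with Mi-2. E2F7 and E2F8 together summed to 15.7, 17.4 and 16.5 TPM with DMSO and 6.96, 7.12 and 9.13 TPM with Mi-2. Activators therefore outweighed the atypical pair 5.37 to 6.03 times in DMSO libraries and 7.17 to 8.57 times in Mi-2 libraries. Relative to the pocket sum, the activator sum was 1.51 to 1.80 with DMSO and 0.911 to 1.22 with Mi-2. E2F4 stood above E2F1 in every library, by 1.52 to 1.79 times with DMSO and by 2.54 to 3.43 times with Mi-2.

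By TPM the order of the members in DMSO libraries was led by MYBL2 (218 ± 23.1, mean ± SD, n = 3). TFDP1 (42.6 ± 2.86), E2F1 (42.2 ± 5.51) and E2F2 (37.6 ± 3.35) came next. E2F1 overlapped both of its neighbours in this order, while every TFDP1 library lay above every E2F2 library. RBL2 followed at 26.3 ± 2.68, below the range of E2F2. RBL1 (16.9 ± 1.58), E2F3 (15.6 ± 0.712), RB1 (14.5 ± 1.28) and E2F8 (13.3 ± 0.119) came after it, with neighbours within about 1 SD of each other, and E2F7 was the lowest (3.21 ± 0.822). With Mi-2, RBL2 (32.7 ± 3.98) stood second after MYBL2 (128 ± 26.4), with TFDP1 (28.0 ± 1.70), E2F2 (25.0 ± 4.08) and E2F1 (20.9 ± 3.15) below it. RB1 (15.6 ± 1.52), E2F3 (13.4 ± 0.812), RBL1 (10.7 ± 1.16), E2F8 (6.12 ± 1.19) and E2F7 (1.62 ± 0.150) closed the order. Among these, RBL2 and TFDP1, TFDP1 and E2F2, E2F2 and E2F1, and RB1 and E2F3 had overlapping libraries.

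MYBL2 (chr20:43667019-43716496, plus strand) had 408, 491 and 476 CPM with DMSO and 235, 235 and 339 CPM with Mi-2. No Mi-2 library reached the DMSO range, though Mi-2 library 3 stood well above the other 2. The fall of 0.76 ± 0.15 on the log2 scale (1.70-fold, edgeR adjusted p = 0.0133) lost its call when DMSO library 2 or Mi-2 library 1 was left out (adjusted p up to 0.0577). Of the 7 members that fell, 6 had their highest Mi-2 value in library 3, the exception being RBL1. MYBL1 (A-MYB), a paralogue, fell too, from 18.6 to 19.9 CPM with DMSO to 8.17 to 10.3 CPM with Mi-2 (-1.01 ± 0.13, edgeR adjusted p = 0.00339).

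FOXM1, the forkhead factor that follows MYBL2 on MuvB, went from 73.8, 73.9 and 75.4 CPM to 42.7, 39.7 and 60.7 CPM, a fall of 0.64 ± 0.14 on the log2 scale (edgeR adjusted p = 0.0223). As in MYBL2, library 3 was the highest of the Mi-2 libraries. Of the MuvB core, LIN9 fell (-0.46 ± 0.11, edgeR adjusted p = 0.0311). LIN37 (0.27 ± 0.18), LIN52 (0.01 ± 0.12), LIN54 (-0.21 ± 0.10) and RBBP4 (-0.05 ± 0.08) were not called. That makes 3 of 7 lower in the list of MuvB and its partners (median -0.21), beside 6.03% of all genes tested. MYBL1 alone of the 7 was called when DMSO library 2 or 3, or Mi-2 library 1 or 2, was left out, with adjusted p of up to 0.0921 for FOXM1 and 0.113 for LIN9.

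Target genes were counted with the members themselves left out. Like the members, all the gene lists were chosen with earlier results of these data known. The contrasts of these lists with all genes are therefore a description. CCNA2, CCNE1, CCNE2 and UHRF1 stand in a pair of lists each and are counted in both. Of 33 G1/S targets of E2F, 30 fell and none rose (median log2 fold change -0.86), beside 6.03% and 5.02% of all genes tested. The largest falls were in CDC45 (-1.14 ± 0.17), MCM4 (-1.13 ± 0.14) and MCM2 (-1.10 ± 0.17), parts of the replicative helicase, and in CLSPN (-1.08 ± 0.08), a replication checkpoint protein. CCNE1 (-0.52 ± 0.15), CDT1 (-0.66 ± 0.20) and the barely expressed CDCA7 (0.11 ± 1.01) were not called and are named after their values were seen. With 1 library left out 25 to 32 fell.

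Of 30 G2/M targets of MYBL2, FOXM1 and MuvB, all had negative values (median -0.47) and 11 fell, beside 6.03% of all genes tested. AURKB (-0.82 ± 0.17), CCNA2 (-0.82 ± 0.13), BUB1B (-0.78 ± 0.16) and CDK1 (-0.77 ± 0.13), all needed to enter or complete mitosis, were the largest. The count of 11 depended on the libraries. Leaving out DMSO library 2 or 3 gave 6 and 5, and leaving out Mi-2 library 1, 2 or 3 gave 4, 6 and 20. The call of AURKB rested on DMSO library 3 and on Mi-2 libraries 1 and 2, and that of BUB1B on these and on DMSO library 2 (adjusted p up to 0.0721 and 0.0586 when one was left out). CCNA2 and CDK1 were called with any library left out.

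**Figure D4:**
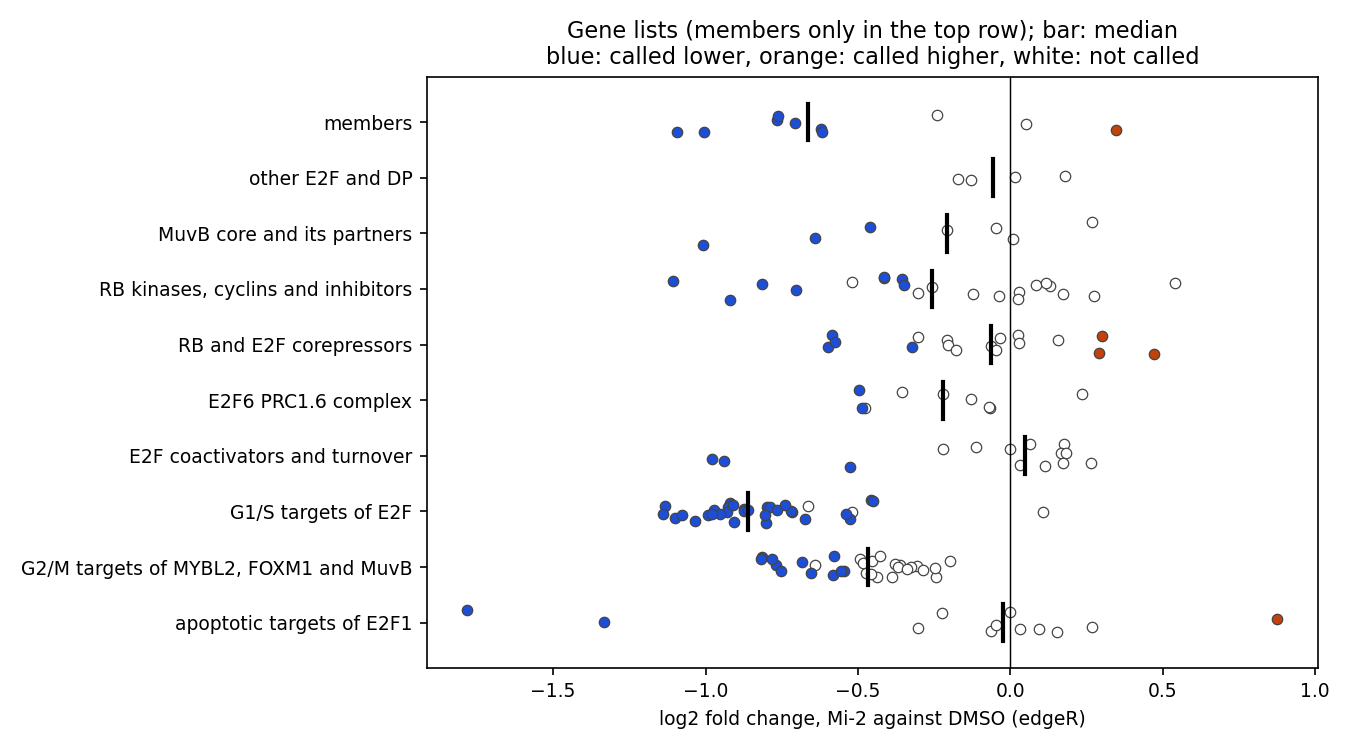
Log2 fold change (x axis) of each tested gene in the member set (top row) and in 9 further lists without the members, with the median of each as a bar. Among the 9 further lists G1/S targets sit lowest (median -0.86), G2/M targets follow (-0.47) and the other E2F and DP genes centre near 0 (-0.06). The member set has a median of -0.66.

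In the list of RB kinases, cyclins, inhibitors and their regulators, 7 of 21 genes fell and none rose (median -0.26). Over all genes tested 6.03% were lower and 5.02% higher. CCNE1, CCNE2 and CCNA2 also stand in the target lists, and the order of these changes was not tested. CDC25A, the phosphatase that activates CDK2, fell by 1.11 ± 0.18, the cyclin gene CCNE2 by 0.92 ± 0.14, CCNA2 by 0.82 ± 0.13 and CDK2 itself by 0.70 ± 0.13 on the log2 scale. The count was 4 without DMSO library 1 or Mi-2 library 1 and 3 without DMSO library 2, where CDK2 had an adjusted p of 0.0506. None of the kinase inhibitor genes CDKN1A, CDKN1B, CDKN1C, CDKN2A, CDKN2B, CDKN2C and CDKN2D was called.

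Partners that pocket proteins and E2Fs recruit moved both ways. Of 17 corepressor genes 4 fell and 3 rose (median -0.06), beside 6.03% and 5.02% of all genes tested. The histone methyltransferase genes SUV39H1 (-0.60 ± 0.13) and EZH2 (-0.58 ± 0.09), RBBP8 (-0.57 ± 0.09) and the histone-binding RBBP7 (-0.32 ± 0.09) fell. ARID4A (0.47 ± 0.12), KDM5A (0.30 ± 0.08) and SMARCA2 (0.29 ± 0.08) rose. The 3 rises were weak: none was called without DMSO library 1, 2 or 3 or without Mi-2 library 1 or 2 (adjusted p up to 0.164). The count of falls was 2 when DMSO library 2 or 3, or Mi-2 library 1, was left out. Of 14 coactivators and turnover factors 3 fell, UHRF1 (-0.98 ± 0.14), DTL (-0.94 ± 0.11), a substrate receptor for destruction of CDT1, and CCNF (-0.53 ± 0.13), a cyclin of a ubiquitin ligase, and the median was 0.05. CCNF lost its call when DMSO library 2 or 3, or Mi-2 library 1 or 2, was left out (adjusted p up to 0.122).

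**Figure D5:**
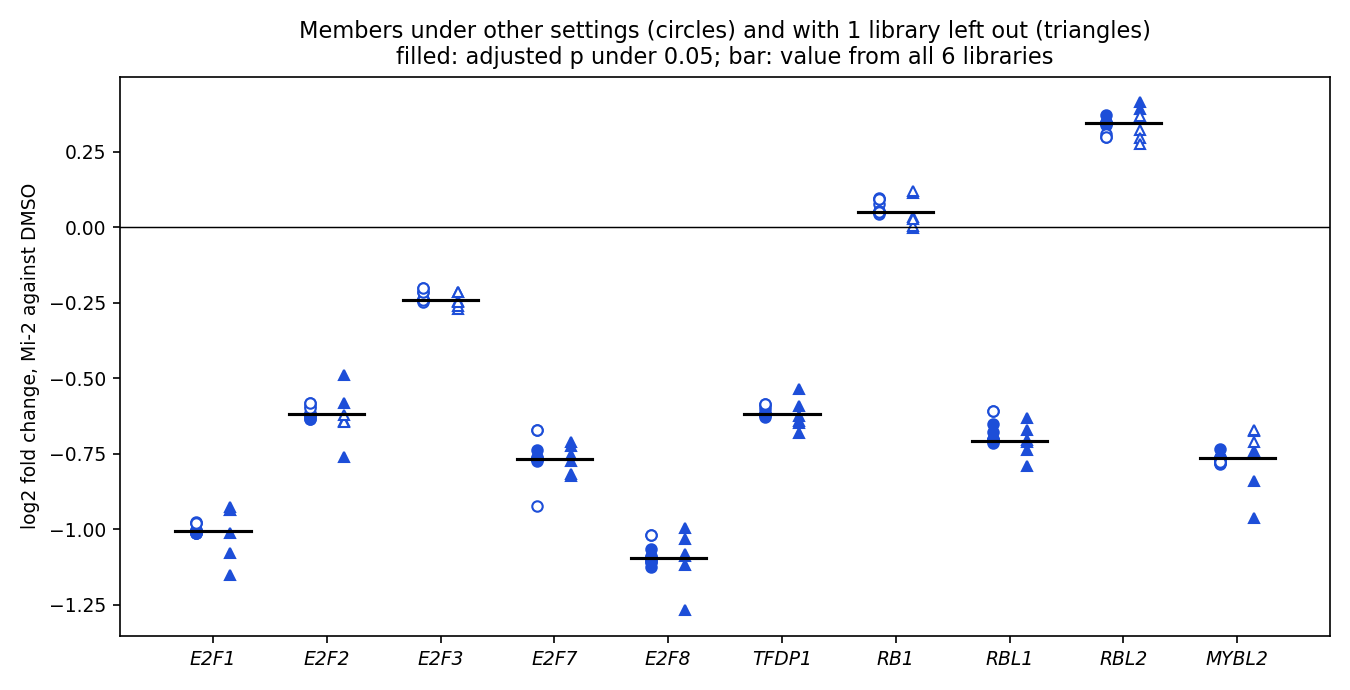
Log2 fold change (y axis) of each member under 11 other settings (circles) and with 1 library left out (triangles), filled where the adjusted p was under 0.05, with the value from all 6 libraries as a bar. E2F1, E2F7, E2F8, TFDP1 and RBL1 stay called with any library left out, while E2F2, MYBL2 and RBL2 do not.

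Which genes resembled each called member was asked over the 6 libraries, by the root mean square difference of centred log2 CPM among 10894 genes with a symbol and an average log2 CPM of at least 2. This is a description of 6 libraries, in which the treatment makes most of each profile. Closest to E2F1 were CHAF1A, a histone chaperone of replicating chromatin (0.0589), and TONSL (0.0869), and closest to E2F8 were CDCA5 (0.0462) and the uracil glycosylase gene UNG (0.0547). E2F2 was nearest to PIDD1 (0.0504) and ASF1B (0.0644), E2F7 to DNMT1 (0.0556) and WEE1 (0.0696), and MYBL2 to TICRR (0.0532) and the pseudogene RPL23AP7 (0.0596). TFDP1 was nearest to ADCY3 (0.0239) and HAUS7 (0.0336), RBL1 to LINC00891 (0.0682) and DDX28 (0.0690), and RBL2 to SLC1A4 (0.0165) and PSKH1 (0.0225).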

How the data were processed

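Per the submitters' processing notes, RSEM 1.3.3, StringTie 2.1.0, HISAT2 2.1.0 and fastp 0.19.5 were used with the build GRCh38.p13, in roles not stated. The deposited table of estimated counts per gene, partly fractional, was not scaled between libraries. A second deposited table holds TPM, which the authors corrected for gene length. The RNA selection, the strand and the annotation release were not given in the sources used here. Of the IDs, 62625 were named from an Ensembl symbol table and 72 from GENCODE 29.

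Counts were rounded, filtered with filterByExpr (minimum count 10, total 15) and scaled by TMM. They were tested with edgeR 4.0.16 (R 4.3.3), Mi-2 against DMSO over 6 libraries. Standard errors came from the fold change and F statistic, and 95% intervals from the same error. Data simulated from the means and dispersions of this fit were fitted in the same way afterwards. Precision is limited by a biological coefficient of variation of 14.2%. Alternatives used limma 3.58.1 and DESeq2 1.42.0. Members and lists were chosen with earlier results of these data known. Named were the members, up to 4 called genes per list and direction with average log2 CPM of at least 1, FOXM1, the MuvB core, E2F4, E2F5, E2F6 and TFDP2, and the 2 nearest profiles per called member. A planned search of protein sequences was not run.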

Additional observations from a re-analysis of the deposited data

How the results depend on the processing

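Of the 10 members, 7 fell under RLE or upper-quartile scaling, DESeq2, limma-voom, no low-count filter, a minimum of 1 CPM in 3 libraries, and removal of immunoglobulin genes with the 20 highest genes, and RBL2 rose in each. Limma on log2(TPM + 1) or log2(TPM + 0.1), with a mean TPM of at least 1, called 5 lower and 0 higher. On log2(TPM + 1) with no TPM filter it called 0 genes of 31463 (smallest adjusted p 0.0574), and at an unadjusted p under 0.05 it had 1972 lower and 1836 higher genes, 7 members lower and 1 higher among them. With 1 library left out, 5 to 7 members fell and 0 to 1 rose. Over all genes, 969 fell and 808 rose, against 849 and 923 under upper-quartile scaling, 1541 and 1221 with no filter, 381 and 229 on log2(TPM + 1), 398 and 249 on log2(TPM + 0.1), and 302 to 866 and 216 to 715 with 1 library left out. The cause of these shifts was not tested. With the library number as a replicate block, 2035 genes fell and 1791 rose, and 8 members fell, E2F3 added (adjusted p 0.0337), and 27 of the G2/M targets. The main fit had no block because the labels state no pairing. Deviations of same-numbered libraries correlated at 0.409, 0.059 and 0.261, and those of differently numbered libraries at -0.326 to 0.079. The 0.079 was between Mi-2 library 2 and DMSO library 3. Whether same-numbered libraries form pairs was not tested. G2/M targets fell in 24 cases with no filter and in 16 with DESeq2. Sign changed only for genes near 0 and not called: with 1 library left out, log2 values ran from -0.0011 (no DMSO library 2) to 0.1203 for RB1, from -0.0714 (no DMSO library 1) to 0.1169 for E2F5, with -0.0157 and -3e-04 when Mi-2 library 1 or 2 was dropped, and from -0.0447 (no Mi-2 library 1) to 0.0731 for LIN52, with -0.0227 and -0.0058 when DMSO library 2 or Mi-2 library 2 was dropped. E2F7, with 162 to 308 counts per library, had the least depth of the members.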

Other observations

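In the list of apoptotic targets of E2F1, 2 of 12 tested genes fell and 1 rose (median -0.02). Over all genes tested these shares were 6.03% and 5.02%. PMAIP1, which encodes the BH3-only protein NOXA, fell (-1.33 ± 0.23, edgeR adjusted p = 0.00885), as did HIC1 (-1.78 ± 0.32), named after its values were seen because it lies below the level set for naming, and TP53INP1 rose (0.88 ± 0.14). PMAIP1 and TP53INP1 were called with any library left out, which was not examined for HIC1. BCL2L11 (0.09 ± 0.09) and APAF1 (0.03 ± 0.11) were not called. TP73 was not tested, for too few counts.

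In the PRC1.6 complex, through which E2F6 represses germline genes, 2 of 9 genes fell, CBX3 (-0.50 ± 0.09) and WDR5 (-0.49 ± 0.09), and none rose (median -0.22). Over all genes tested 6.03% were lower and 5.02% higher. The call of WDR5 was lost when DMSO library 2 or Mi-2 library 1 was left out (adjusted p up to 0.0540), leaving 1 of the 9. Limma on either TPM scale also called 1 lower, and the fit with the library number as a block called 5 lower and 1 higher.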
